A study of Mus musculus with 6 samples.

Results

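Transcripts of 9 genes that make superoxide or hydrogen peroxide, help to build the enzymes that do, or dispose of superoxide were followed in primary mouse hepatocytes with and without IL-1β. The genes are Duox1, Duox2, Duoxa1, Duoxa2, Nox4, Cyba, Cybb, Ncf1 and Sod2, found by symbol among the 23282 genes of the deposited count table, each in 1 row. They were chosen with the difference between IL-1β-treated and control hepatocytes in these same samples already known, so that difference is given here for them as a description. Those with enough counts entered the fit across all genes, and the number of them called is stated. The p of a single gene among them is not printed, and the fit's calls are not used as evidence about them. Hepatocytes were isolated by collagenase perfusion of livers of C57BL/6N mice, kept for 3 h in culture plates, and then either not treated (control, 3 samples) or given recombinant IL-1β protein for 24 h (IL-1β, 3 samples). The labels name no transgene, knockout or diet for these groups, although the series title speaks of metabolic stress, and filtering and washing are the steps described for separating hepatocytes from other liver cells. The labels give neither the dose nor the number of animals, and the study states a dose for hepatocytes given this cytokine in another assay but not separately for the sequenced cultures, so the p-values below measure the spread between these samples, which may be technical. The study sequenced these cells to look for transcription factors that change when hepatocytes meet this cytokine.

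Libraries were made by QuantSeq, which reads mRNA near its 3′ end, and held 9538741 to 11105408 counts, of which the ribosomal RNA precursor Rn45s took 11.7% to 14.2%. Levels are given as raw counts or as CPM, which are counts scaled to a common library size by TMM, which corrects for differences in library composition. At these depths 3 counts, taken as the limit of detection for counting error only, correspond to 0.268 to 0.320 CPM. Because each mRNA is read near its end, counts were not divided by gene length, and levels of different genes are set side by side only as counts of 3′ ends. The hepatocyte label was checked against 11 listed markers: Alb, the gene of albumin, had a mean of 16200 CPM in control and 14100 CPM in IL-1β samples, and the 11 markers together made up 22000 to 22300 CPM and 18200 to 19200 CPM. The urea cycle genes Ass1 and Cps1 were scarce, with control means of 0.716 and 2.65 CPM. Of the 10 hepatocyte markers tested 8 were lower and 0 higher after IL-1β in edgeR (9 lower and 0 higher at an unadjusted p below 0.05, and 7 and 0 by DESeq2), where 6.44% of all genes tested were called lower. Among them were the abundant Apoa1 (log2 fold change -0.33), Serpina1c (-0.30) and Ttr (-0.35). The groups of Apoa1 overlapped, and its adjusted p was 0.518 in DESeq2. Without control replicate 1 the log2 fold change of Apoa1 was -0.09.

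NADPH oxidases are membrane enzymes that pass electrons from NADPH to oxygen. The dual oxidases encoded by Duox1 and Duox2 release hydrogen peroxide, and each leaves the endoplasmic reticulum only with its maturation factor, encoded by Duoxa1 or Duoxa2, whose gene lies beside it in the opposite orientation. This system is best known from the thyroid, where it supplies hydrogen peroxide for hormone synthesis, and from airway and gut surfaces, where it takes part in defence. The phagocyte oxidase consists of the catalytic subunit gp91phox (Cybb), its membrane partner p22phox (Cyba) and cytosolic subunits such as p47phox (Ncf1). Nox4 also uses p22phox and is active without cytosolic subunits, and Sod2 encodes the manganese superoxide dismutase of mitochondria, which turns superoxide into hydrogen peroxide.

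Of the 9 genes, 8 had a count in at least 1 library, and 6 had enough counts to enter the comparison of 11657 genes. Of these 6, 5 were higher after IL-1β with no overlap between the groups and an adjusted p below 0.05 in edgeR's quasi-likelihood test, and 0 were lower at that threshold. Across all genes tested 13.4% were called, 6.97% as higher and 6.44% as lower, and groups did not overlap for 28.2%, with IL-1β above control for 14%. Because the genes were picked with this contrast known, nothing is read from that count.

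**Figure D1:**
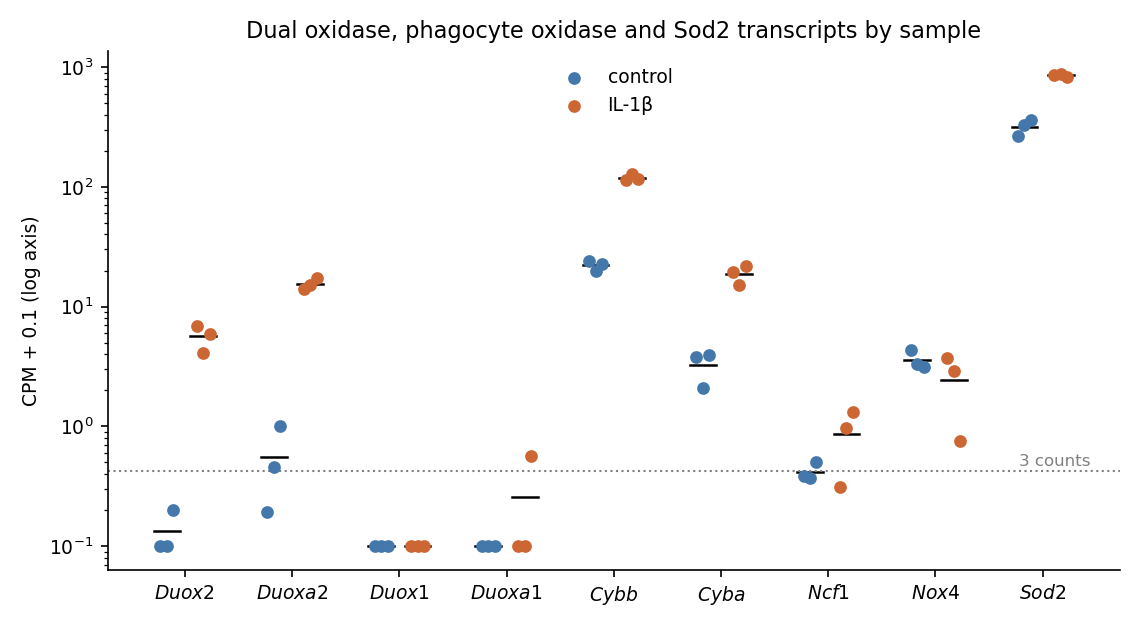
CPM plus 0.1 on a log axis for the 9 genes, with 1 point per sample, blue for control and orange for IL-1β, a bar at each group mean and a dotted line at 3 counts in the shallowest library. Duox2, Duoxa2, Cybb, Cyba and Sod2 have every IL-1β point above every control point, while Duox1 lies at 0 throughout and Ncf1 and Nox4 overlap.

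The dual oxidase Duox2 was near silent in control hepatocytes and present in all IL-1β samples. Its counts were 0, 0 and 1 in the controls and 64, 42 and 63 after IL-1β, or a mean of 0.0335 CPM against 5.57 ± 1.42 CPM (SD, n = 3). The groups did not overlap, and 2 of the 3 controls had no read at all. The summed counts of 1 and 169 gave a ratio of 176 after scaling, with an exact 95% interval of 31.1 to 6980 that covers counting error only. The fitted log2 fold change of 7.0 (standard error 0.69) rests on that single control read: it was 8.87 without control replicate 3, which holds the read, and the mean difference was 2.65 on the log2(CPM + 1) scale.

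Its maturation factor Duoxa2 showed the same pattern at a higher count. Control counts were 1, 4 and 9, and IL-1β counts were 131, 157 and 185, or 0.452 ± 0.414 CPM against 15.4 ± 1.62 CPM (SD, n = 3 per group). All IL-1β samples lay far above all controls, of which 1 was below the limit of 3 counts. The summed counts of 14 and 473 gave a ratio of 35.1 with an exact 95% interval of 20.7 to 64.8 for counting error, and the fitted log2 fold change was 5.09 (standard error 0.36). It was 6.00 without control replicate 3 and 4.62 without control replicate 1. Both Duox2 and Duoxa2 passed the filter on low counts only through their IL-1β samples, so their fitted values are a description.

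The other dual oxidase pair stayed at or near 0. Duox1 had no count in any of the 6 libraries, which allows up to 0.268 to 0.320 CPM per library. Duoxa1 had no count in 5 libraries and 5 counts in IL-1β replicate 3. Neither gene passed the filter on low counts, and a response below the limit of detection would not have been seen. The interval of Duoxa1 in the deposited table stops 1358 bases short of the farthest end among its GENCODE M21 coding models. Whether reads in that stretch were counted is not given in the sources used here.

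**Figure D2:**
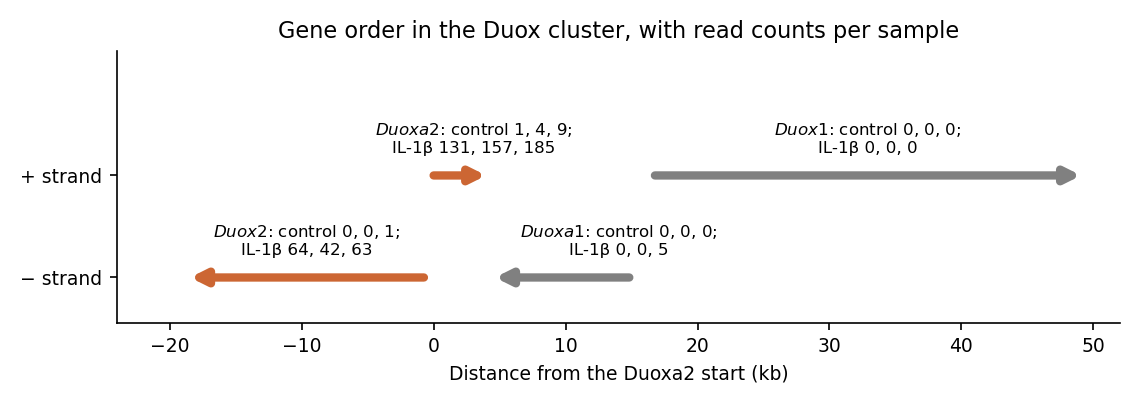
Position and direction of transcription of the 4 genes as the deposited table gives them, as distance in kb from the start of Duoxa2, with the read counts of the 3 control and 3 IL-1β samples beside each gene. The pair drawn in orange has 42 to 185 counts in the IL-1β samples, and the pair drawn in grey has 0 to 5.

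All 4 genes lie within 67536 bases of mouse chromosome 2, from 122280437 to 122347972 on the GRCm38 build. Duox2 lies on the minus strand from 122280437 to 122298165, Duoxa2 on the plus strand from 122298900 to 122302885, Duoxa1 on the minus strand from 122303549 to 122313730, and Duox1 on the plus strand from 122315672 to 122347972. In these intervals the starts of Duox2 and Duoxa2 are 735 bases apart and those of Duoxa1 and Duox1 1942 bases apart. In the same intervals the 3′ ends of Duoxa2 and Duoxa1 face each other across 664 bases, so the pair read after IL-1β and the pair at or near 0 are neighbours. The farthest 3′ end of Duoxa1 in GENCODE M21, at 122302191, lies inside the interval of Duoxa2.

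The 250 bases before the annotated start of both genes of the responding pair are shown because they lie in the space between them, where RefSeq puts the starts 673 bases apart. They come from RefSeq on GRCm38.p6, Duox2 from chr2:122298228-122298477 on the minus strand and Duoxa2 from chr2:122298650-122298899 on the plus strand, each written 5′ to 3′ towards its gene. Capitals mark matches to any of 4 searched motifs.
Duox2: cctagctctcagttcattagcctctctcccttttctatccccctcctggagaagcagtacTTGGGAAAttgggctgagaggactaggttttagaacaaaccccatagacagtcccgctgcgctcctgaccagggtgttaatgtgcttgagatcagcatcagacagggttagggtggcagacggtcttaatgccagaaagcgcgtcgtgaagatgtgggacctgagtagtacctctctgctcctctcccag
Duoxa2: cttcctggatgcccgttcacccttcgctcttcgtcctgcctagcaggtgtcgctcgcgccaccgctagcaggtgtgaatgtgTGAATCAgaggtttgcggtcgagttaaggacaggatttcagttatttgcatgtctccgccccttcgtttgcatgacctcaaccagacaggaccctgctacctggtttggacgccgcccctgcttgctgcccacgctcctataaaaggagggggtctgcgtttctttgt

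The motifs were an NF-κB-type pattern, which is GGG and CC with any 5 bases between them, TGANTCA for AP-1, TTCNNNGAA for STAT factors and TTNNGNAA of C/EBP type, searched on both strands. Of the 27025 promoters of the same length they occur in 45.3%, 6.87%, 7.11% and 37%, so the first and the last are common letters. Duox2 holds the C/EBP-type letters and none of the other 3, and Duoxa2 holds the AP-1 letters, 168 to 162 bases before its start, and none of the other 3. Neither window holds the NF-κB-type letters, which says only that those letters are not in these 250 bases.

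Duoxa2 gave more 3′-end counts than Duox2 in every IL-1β library. The ratio of the counts was 2.05 (exact 95% interval 1.51 to 2.81) in replicate 1, 3.74 (2.64 to 5.39) in replicate 2 and 2.94 (2.20 to 3.97) in replicate 3. The intervals of replicates 1 and 3 overlap, as do those of replicates 2 and 3. Those of replicates 1 and 2 overlap only between 2.64 and 2.81, and neither holds the ratio of the other replicate. Overlap of intervals does not show equal ratios, and a difference between replicates was not tested. The interval of Duox2 in the deposited table stops 1190 bases short of the end of the longer GENCODE M21 model, and whether reads in that stretch were counted is not given in the sources used here. Duoxa2 is covered to its annotated end. All 75-base windows in its last 500 bases also occur, in antisense, in a Duoxa1 isoform of GENCODE M21, so without a strand-aware count the reads of Duoxa2 and of that isoform cannot be told apart. No such window of Duox2 or Duox1 occurs in a transcript of another gene.

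Genes on either side of the cluster were listed by distance. Sord, the sorbitol dehydrogenase gene 15100 bases beyond Duox2, rose, with 117 ± 8.34 CPM in control and 149 ± 4.04 CPM in IL-1β samples (SD, n = 3 per group), a log2 fold change of 0.35 (edgeR adjusted p = 0.00188). Shf, which lies 920 bases beyond Duox1, had 9, 4 and 4 counts in the controls and 2, 2 and 11 after IL-1β, and was not tested. Slc28a2, a nucleoside transporter gene 78505 bases beyond Duox1, had 4, 3 and 1 counts against 13, 5 and 13, also below the filter on low counts. The other 3 neighbours, Patl2, 4933406J08Rik and Bambi-ps1, had 1 count between them in all libraries.

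The catalytic subunit of the phagocyte oxidase, Cybb, was the most abundant oxidase gene among the 9 after IL-1β. It lies on chromosome X from 9435254 to 9469324, minus strand. Its counts were 253, 220 and 223 in the controls and 1072, 1332 and 1235 after IL-1β, or 22 ± 2.08 against 119 ± 7.64 CPM (SD, n = 3 per group). The groups were far apart relative to the spread within each, at a fitted log2 fold change of 2.44 (standard error 0.098), or 5.42-fold. It lay between 2.37 and 2.50 when any 1 sample was dropped.

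Its membrane partner Cyba, on chromosome 8 from 122424771 to 122432940, minus strand, moved by a like amount from a lower level. Counts were 39, 22 and 38 in the controls and 180, 157 and 233 after IL-1β, or 3.15 ± 1.03 against 18.6 ± 3.32 CPM (SD, n = 3 per group). The fitted log2 fold change was 2.57 (standard error 0.23), or 5.94-fold, and all IL-1β samples were above all controls. The ratio of Cybb to Cyba counts within a library was 6.49, 10 and 5.87 in the controls and 5.96, 8.48 and 5.30 after IL-1β, so the ranges of this ratio overlapped between the groups.

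The cytosolic subunit gene Ncf1, on chromosome 5 from 134220053 to 134229625, minus strand, stayed close to the limit of detection. Its counts were 3, 3 and 4 in the controls and 2, 9 and 13 after IL-1β, and it did not pass the filter on low counts. The groups overlapped, since IL-1β replicate 1 was the lowest of all 6 libraries, although it held 1072 counts of Cybb.

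Nox4, on chromosome 7 from 87246649 to 87398708, plus strand, was the only tested gene of the 9 with a negative log2 fold change. Counts were 45, 36 and 30 in the controls and 34, 29 and 7 after IL-1β, or 3.49 ± 0.645 against 2.35 ± 1.54 CPM (SD, n = 3 per group). The groups overlapped, and 1 library, IL-1β replicate 3, lay apart from the other 5. The fitted log2 fold change of -0.58 (standard error 0.43) became -0.12 when IL-1β replicate 3 was dropped and -1.02 when replicate 1 of that group was, so no direction is given for it.

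Other oxidase subunits and regulators were examined as a list of 13 genes in the table, of which 8 were tested. In edgeR's quasi-likelihood test 2 rose, 0 fell and 6 did not pass an adjusted p of 0.05, with a median log2 fold change of -0.04 beside -0.002 for all genes tested, of which 13.4% were called. At an unadjusted p below 0.05 the numbers were 2 and 1, and by DESeq2 1 and 1. With scaling by total counts alone they were 2 and 1. Those that rose were Noxo1 and Rac2.

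Noxo1 encodes the organiser subunit that serves Nox1 in place of p47phox. It had 14, 0 and 7 counts in the controls and 51, 49 and 49 after IL-1β, and its log2 fold change was 2.86 (standard error 0.53, edgeR adjusted p = 3.2e-04). By DESeq2 its adjusted p was 0.0601, and its log2 fold change was 3.82 without control replicate 1 and 2.26 without control replicate 2. Rac2, the small GTPase of the phagocyte oxidase, had 8, 20 and 15 counts against 30, 55 and 34, a log2 fold change of 1.51 (standard error 0.41, edgeR adjusted p = 0.0126). Its adjusted p was 0.0542 without control replicate 1 and 0.135 without IL-1β replicate 2. Both genes had every IL-1β sample above every control, at mean levels of at most 4.90 CPM.

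Nox1, the catalytic partner of Noxo1, had 40.6 ± 4.03 CPM in control and 37.9 ± 1.01 CPM after IL-1β (SD, n = 3 per group), and its log2 fold change was -0.10 with an edgeR adjusted p of 0.652. Its activator Noxa1 had 14, 20 and 15 counts against 3, 10 and 12 (log2 fold change -0.92, edgeR adjusted p = 0.326). Rac1, the widely expressed relative of Rac2, had a log2 fold change of -0.19 with an adjusted p of 0.0563 in edgeR and 0.0399 in DESeq2. BC017643, listed by this symbol and now called Cybc1, a chaperone of the gp91phox and p22phox complex, had 18.9 and 19.1 CPM. Ncf4, which encodes p40phox, had 1 to 5 counts in any library.

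Cybb, Cyba, Ncf1 and Rac2 are known above all from phagocytes, so markers of such cells are given beside them. In bulk samples, fewer cells of a type and less RNA per cell cannot be told apart. Across all genes tested edgeR called 6.97% higher and 6.44% lower. Of 15 Kupffer cell and macrophage markers, 11 were tested, and 1 rose, 0 fell and 10 did not pass (3 and 0 at an unadjusted p below 0.05, 1 and 0 by DESeq2), with a median log2 fold change of 0.31. Their summed level was 318 to 356 CPM in the controls and 391 to 401 CPM after IL-1β. The marker that rose was Mpeg1, which encodes the pore-forming perforin-2, from 83 ± 3.92 to 141 ± 13.8 CPM (SD, n = 3 per group), a log2 fold change of 0.76 (edgeR adjusted p = 1.7e-07). Of the summed level Mpeg1 made up 79.1 to 87 CPM in the controls and 125 to 150 CPM after IL-1β. The lysosomal Cd68 had a log2 fold change of -0.06 (edgeR adjusted p = 0.7), Ctss of -0.02 and Cd5l of -0.21. The other 7 tested markers, all scarcer, had values from 0.02 for Lyz2 to 0.75 for C1qa without passing, among them the scavenger receptor gene Marco at 0.67 with no overlap between the groups (edgeR adjusted p = 0.141). Of the markers that define Kupffer cells, Clec4f had 0 to 27 counts per library, Vsig4 0 to 7, Timd4 0 or 1, and the macrophage gene Cd163 none. The part of these cells in the differences of Cybb and Cyba was not tested.

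**Figure D3:**
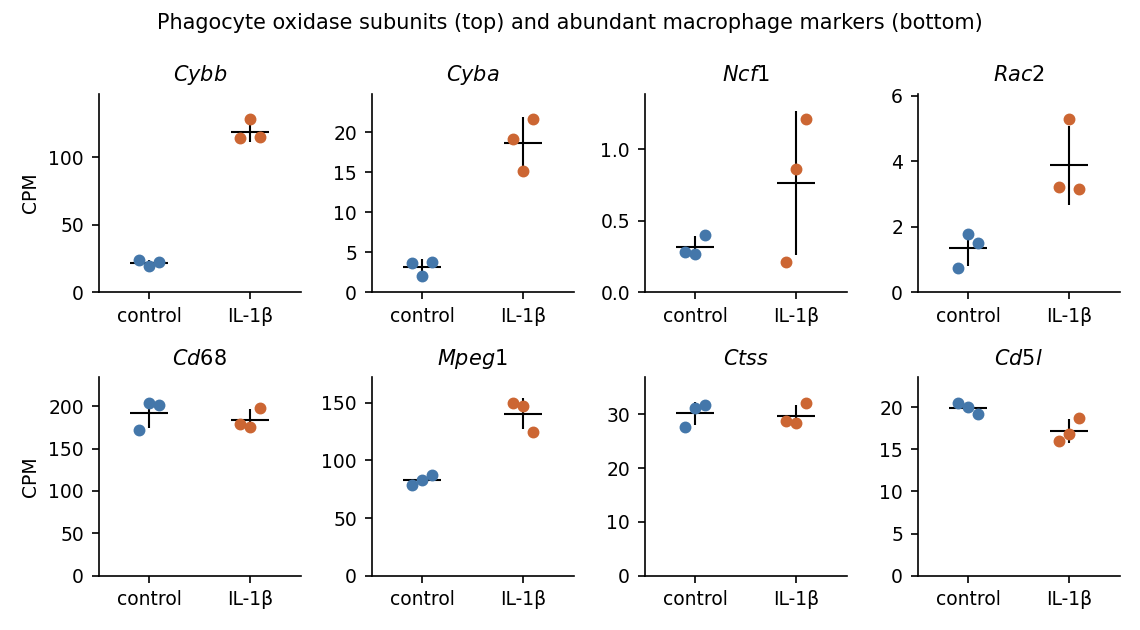
CPM per sample (points), group mean and SD (bars) for 4 phagocyte oxidase genes in the top row and the 4 most abundant macrophage markers in the bottom row, each axis starting at 0. In the top row the IL-1β points of Cybb, Cyba and Rac2 lie above all control points and those of Ncf1 overlap them, and in the bottom row the same holds for Mpeg1, while Cd68 and Ctss overlap and Cd5l lies lower after IL-1β without passing the test.

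Neutrophils also carry the phagocyte oxidase. Of 11 listed neutrophil markers, 6 were at 0 in all libraries, among them S100a9, Ltf, Elane and Mpo, and 1 was tested. This was S100a8, an alarmin subunit, with 0 counts in all controls and 19, 36 and 51 after IL-1β (edgeR adjusted p = 2.2e-06). The neutrophil markers together stood at 0 to 0.447 CPM in the controls and 2.67 to 5.57 CPM after IL-1β, of which S100a8 made up 2.03 to 4.74 CPM. The part of such cells in these differences was not tested. Duox2 and Duoxa2 are known from epithelia, so bile duct markers are given beside them. The counts called in this and the next lists stand beside 6.97% higher and 6.44% lower across all genes tested in edgeR. Of 9 cholangiocyte markers, 3 were tested, 0 rose and 1 fell (1 and 2 at an unadjusted p below 0.05, 1 and 1 by DESeq2). The one that fell was Spp1, with a log2 fold change of -1.20 (edgeR adjusted p = 4.4e-12), from a mean of 190 to 82.7 CPM. Sox9, a transcription factor gene and the other abundant marker, had 134 and 154 CPM with no overlap (log2 fold change 0.21, adjusted p = 0.0519 in edgeR and 0.0457 in DESeq2), and Bicc1 had -0.95 (edgeR adjusted p = 0.0832). Krt19 had 6, 3 and 2 counts in the controls and none after IL-1β, and Epcam, Krt7 and Cftr had at most 2 counts in any library. The list stood at 320 to 334 CPM in the controls and 239 to 242 CPM after IL-1β, and its part in the Duox2 and Duoxa2 differences was not tested. Of 9 endothelial markers tested 1 rose and 2 fell in edgeR, and 0 rose and 2 fell by DESeq2 and with total-count scaling, at a summed 83.8 to 91.1 CPM in the controls and 81.2 to 87.5 CPM after IL-1β. Clec4g (log2 fold change -2.87) and Kdr (-1.49) fell, and Lyve1 had 0.45 with an adjusted p of 0.0274 in edgeR and 0.0587 in DESeq2. Of 4 stellate cell markers tested 0 passed in edgeR (1 at an unadjusted p below 0.05, and 0 by DESeq2), at 42.1 to 47.6 and 41 to 45 CPM, most of it Ecm1 (log2 fold change -0.29) and Dcn (0.14).

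Sod2 was the most abundant of the 9 genes in both groups. It lies on chromosome 17 from 13007839 to 13018119, plus strand. Its counts were 2803, 3681 and 3577 in the controls and 8066, 9055 and 8940 after IL-1β, or 317 ± 49.5 against 854 ± 20.5 CPM (SD, n = 3 per group). Among the 16189 genes with a count, 97.5% had a lower mean in the controls and 99.3% after IL-1β. The groups did not overlap, and the fitted log2 fold change was 1.43 (standard error 0.082), or 2.69-fold, between 1.31 and 1.52 when each sample was left out. The interval of Sod2 in the table stops 2015 bases before the end of the longest GENCODE M21 coding model, so reads at that farther end may not be among these counts.

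The promoter windows of Cybb, Cyba and Sod2 are shown beside those of the Duox2 pair, since all 5 genes were higher after IL-1β, and those of Cybb and Cyba were chosen after their values were seen. They are 250 bases from RefSeq on GRCm38.p6, Cybb from chrX:9469325-9469574 and Cyba from chr8:122432941-122433190 on the minus strand and Sod2 from chr17:13007589-13007838 on the plus strand, with capitals for matches to the same 4 motifs.
Cybb: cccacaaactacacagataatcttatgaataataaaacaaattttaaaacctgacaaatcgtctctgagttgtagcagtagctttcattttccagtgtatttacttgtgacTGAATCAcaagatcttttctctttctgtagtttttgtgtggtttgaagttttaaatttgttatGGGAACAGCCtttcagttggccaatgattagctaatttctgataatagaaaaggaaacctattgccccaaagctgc
Cyba: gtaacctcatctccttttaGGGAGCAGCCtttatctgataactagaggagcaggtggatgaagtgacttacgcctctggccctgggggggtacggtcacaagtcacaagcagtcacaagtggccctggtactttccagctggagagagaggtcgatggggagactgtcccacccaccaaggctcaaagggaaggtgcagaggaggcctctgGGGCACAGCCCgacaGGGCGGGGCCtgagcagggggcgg
Sod2: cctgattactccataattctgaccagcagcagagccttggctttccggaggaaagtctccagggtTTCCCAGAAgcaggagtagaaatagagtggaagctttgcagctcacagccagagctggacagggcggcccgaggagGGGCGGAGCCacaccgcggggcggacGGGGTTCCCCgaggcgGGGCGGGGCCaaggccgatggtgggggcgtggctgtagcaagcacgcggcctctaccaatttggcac

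Cybb carries the same 7 letters TGAATCA as Duoxa2, 139 to 133 bases before its start, beside 1 match to the NF-κB-type letters. Cyba has 4 such matches, of which 2 overlap each other. Sod2 has 3, of which GGGGTTCCCC fits the pattern on both strands and lies 83 to 74 bases before the start, and 1 match to the STAT letters. The G+C content of the windows was 34% for Cybb, 52.8% for Duox2, 56.4% for Duoxa2, 60% for Cyba and 63.6% for Sod2, and the NF-κB-type pattern is itself made of G and C. Over all 9 genes 6 held it, Duox1, Nox4 and Ncf1 among them, while Duoxa1 held none of the 4 motifs.

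Other genes that remove superoxide or hydrogen peroxide were set beside Sod2 as a list of 20, of which 17 were tested. In edgeR 7 rose, 1 fell and 9 did not pass, with a median log2 fold change of 0.06, beside 6.97% higher, 6.44% lower and a median of -0.002 for all genes tested. With scaling by total counts alone 4 rose and 2 fell. Those that rose were Prdx1, Srxn1, Prdx3, Prdx6, Txn1, Txnrd1 and Sesn2, and the one that fell was Prdx2. Prdx1, a cytosolic peroxiredoxin that breaks down hydrogen peroxide, had the smallest p of the list and rose, at 1950 ± 167 CPM in control and 3170 ± 94.4 CPM in IL-1β samples (SD, n = 3 per group), a log2 fold change of 0.70 (standard error 0.063, edgeR adjusted p = 5.1e-09). Srxn1, which restores overoxidised peroxiredoxins, had a log2 fold change of 0.43 (edgeR adjusted p = 5.4e-06). Prdx3, the peroxiredoxin of the mitochondria where Sod2 resides, rose, at 57.2 ± 3.64 CPM in control and 78.9 ± 3.28 CPM in IL-1β samples (SD, n = 3 per group), or by 0.46 on the log2 scale (edgeR adjusted p = 4.3e-04). Prdx2 fell by 0.33 on the log2 scale (edgeR adjusted p = 0.00367).

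Of the other superoxide dismutases, Sod1 did not pass the threshold and Sod3 had too few counts to be tested. Sod1, the copper and zinc enzyme of the cytosol, had 1380 CPM in control and 1430 CPM after IL-1β, and its log2 fold change was 0.06 (edgeR adjusted p = 0.658). Its copper chaperone Ccs had -0.19 (edgeR adjusted p = 0.405), and the secreted Sod3 had 0 to 2 counts per library. Catalase, Cat, had a log2 fold change of -0.12 (edgeR adjusted p = 0.276) and Gpx1, the main cytosolic glutathione peroxidase, 0.11 (edgeR adjusted p = 0.296). The standard errors of these 4 changes, for Sod1, Ccs, Cat and Gpx1, were 0.061, 0.13, 0.063 and 0.06.

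**Figure D4:**
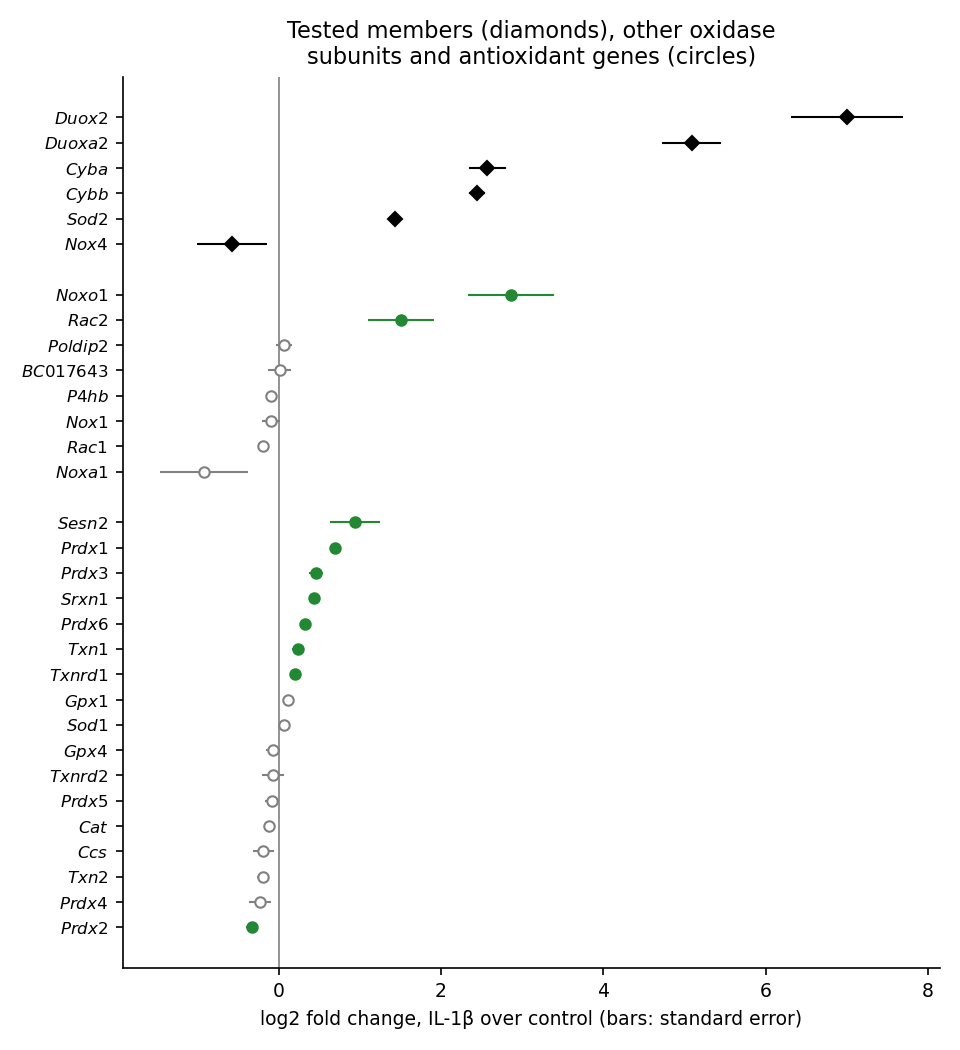
Log2 fold change of IL-1β over control with its standard error for the 6 of the 9 genes that passed the filter on low counts (black diamonds, with no p shown because they were chosen on this contrast), the 8 tested oxidase subunits and regulators, and the 17 tested antioxidant genes (circles, filled where the edgeR adjusted p was below 0.05). The diamonds of Duox2 and Duoxa2 lie at 7.0 and 5.09, and the filled antioxidant circles lie between -0.33 and 0.94.

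Enzymes that make hydrogen peroxide by other routes were a list of 16 in the table, of which 14 were tested, and 2 rose, 1 fell and 11 did not pass, with a median log2 fold change of -0.03, where 13.4% of all genes tested were called. With scaling by total counts alone 2 rose and 2 fell. The monoamine oxidase genes rose, Maoa by a log2 fold change of 0.78 (edgeR adjusted p = 4.7e-07) and Maob by 0.48 (edgeR adjusted p = 0.0034). Qsox1, a sulfhydryl oxidase of the secretory pathway, fell by 0.33 on the log2 scale (edgeR adjusted p = 0.00105). Xdh, which encodes xanthine oxidoreductase, had a log2 fold change of 0.29 with an adjusted p of 0.141. Haem peroxidases, which use hydrogen peroxide, were scarce. Mpo and Epx had no counts, and Lpo had 3 counts in 1 IL-1β library. Pxdn had 16, 4 and 8 counts in the controls and 9, 5 and 9 after IL-1β. Of the 3 peroxidase and aquaporin genes tested 1 rose, the channel gene Aqp9 (log2 fold change 0.50, edgeR adjusted p = 0.00255), while Aqp8 had -0.20 (edgeR adjusted p = 0.109).

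Genes on either side of Sod2 were listed by distance as well. Wtap, 15300 bases before it on the opposite strand, had a log2 fold change of 0.24 (standard error 0.11, edgeR adjusted p = 0.164), Acat2 0.13 (edgeR adjusted p = 0.305) and Acat3 0.22 (edgeR adjusted p = 0.0273). The adjusted p of Acat3 was 0.135 with total-count and 0.0583 with upper-quartile scaling, and lay between 0.0347 without control replicate 3 and 0.108 without IL-1β replicate 2, above 0.05 in 5 of the 6 fits that left out 1 sample. On the other side Gpr31b, Tcp10b and Gm11166 had 0 to 2 counts per library.

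Genes whose levels over the 6 samples were most like those of Duoxa2 and Sod2 were ranked by Pearson's r of log2(CPM + 1) among 8177 tested genes with at least 10 CPM in the higher group. For Duoxa2 they were Mt2, Slpi, Apcs, Ccl5 and Fth1, with r from 0.9987 down to 0.9982, and for Sod2 they were Pde4b, Cebpd, Ankrd1, Hif1a and Pdzrn3, with r from 0.9991 down to 0.9986. Over 0.95 there were 323 genes for Duoxa2 and 331 for Sod2, since any gene with a clear step between the 2 groups of 3 reaches a high r. The values are a description over 6 samples that share libraries and depth. The log2 fold changes of these 10 genes ranged from 0.48 for Mt2 to 2.84 for Ccl5, so genes with a pattern like that of Duoxa2 differed in the size of their step.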

How the data were processed

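Single-end 75-base QuantSeq reads were aligned by the authors with Bowtie2, and the submitters' processing notes name the builds mm10 and GRCm38 and edgeR. The deposited table gives raw counts per gene for 23282 genes and 6 samples, and log2 values of TMM-normalized CPM plus 1 made by the authors. The authors' counting tool, use of strand and handling of reads matching several genes are not given in the sources used here. The authors' fold change, p-value and group averages are also in the table and were not used.

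The comparison used edgeR 4.0.16 under R 4.3.3 (raw counts, filterByExpr, TMM, quasi-likelihood test, Benjamini-Hochberg over 11657 genes, called at 0.05). Recomputed log2(CPM + 1) lay within 0.1 of the deposited log2 values for 100% of values. The fit was also run on simulated counts with a single dispersion and modest fold changes, so that run does not cover genes with near-silent controls such as Duox2. Standard errors are the log2 fold change over the square root of F. Exact binomial intervals and motif searches used Python 3.11.15 with scipy 1.17.1.

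Groups and replicates came from the sample labels. The 9 genes, gene lists and rules were chosen with earlier results of these data known. Genes named were drawn from the 9, up to 4 of each list with the smallest p, the 4 most abundant of each marker list, 3 neighbours on each side of the Duox cluster and Sod2, and the 5 most alike to Duoxa2 and Sod2. Not all of these are named, and others were named after their values were seen. Some listed genes are not reported here and were left out of the list counts. Alternatives were DESeq2 1.42.0, total-count and upper-quartile scaling, other filters, the replicate block and leaving out each sample.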

Additional observations from a re-analysis of the deposited data

How the results depend on the processing

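With at least 10 counts in every library, 3 members were called in place of 5, since Duox2 and Duoxa2 leave the test by construction, and 0 of the 5 oxidase partners left in edgeR (1 at an unadjusted p below 0.05) in place of 2 of 8. With total-count scaling 2 of the peroxidase and aquaporin genes were called in place of 1, and under it the median over all genes tested moved to -0.055 from -0.002 (log2) and the share of higher genes among all calls from 52% to 39.6%. For the cholangiocyte markers the count of 1 became 2 with DESeq2, with no filter, with at least 10 counts in every library and with the replicate block, through Sox9 or Bicc1 near the threshold. Dropping 1 sample at a time left 5 to 8 antioxidant genes (8 with all samples), 5 without control replicate 3, IL-1β replicate 1 or IL-1β replicate 3, 5 to 9 hepatocyte markers (8), 5 without IL-1β replicate 1, and 1 to 2 macrophage markers (1), 2 without control replicate 1 through C1qa. It left 1 to 2 oxidase partners (2), 1 without IL-1β replicate 2, where Rac2 missed the threshold. Other hydrogen peroxide sources gave 5 calls in place of 3 with no filter and with the replicate block. Dropping samples left 1 to 2 cholangiocyte markers, 2 without control replicate 1 or 3. Changes of sign concern values near 0: Eng, at 0.02, had -0.04 with total-count and -0.01 with upper-quartile scaling and -0.05 to 0.12 with each sample left out. On leaving out each sample Ctss had -0.08 to 0.02.

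Pairing by replicate number was checked: same-numbered samples of both groups deviated from their means with r = 0.075, 0.027 and -0.005, and 3 of the 6 samples correlated best with their own number, so the numbers were not taken as pairs. With the replicate block 1671 genes were called in place of 1563, and 5 of the 9 genes as before. The block put Rac1 (adjusted p = 0.0338) and Sox9 (0.0401) past the threshold. The neutrophil markers gave no value with at least 10 counts in every library. Duox1, Duoxa1 and Ncf1 are limited by depth.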
